A study of Mus musculus with 12 samples.

Results

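The transcriptional response of TFEB/TFE3 double knockout (DKO) macrophages to etoposide was described by comparing the 3 libraries of DKO cells exposed to the drug with the 3 libraries of DKO control cells, which together are 6 of the 12 libraries of the series. The members were chosen by their genotype and treatment labels and not by any measured value, and the response was fitted over all genes. All cells were RAW264.7, a mouse macrophage cell line, and the DKO cells lacked both TFEB and TFE3 after CRISPR-Cas9 editing, so every DKO library comes from 1 edited line. Treated cells received 100 µM etoposide for 8 h. The control cells are untreated according to the labels, whereas the methods of the study name DMSO as the control. The other 6 libraries come from Null cells, called WT in the text of the study, as controls or after the same exposure, and they are used here only to say where the DKO response differed. RNA was extracted with one of 2 kits, and the kit of each library is not given in the sources used here. The titles of the 3 DKO etoposide libraries also hold the word MEFs (mouse embryonic fibroblasts), although their other labels say RAW264.7, so markers of both cell types were examined.

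Etoposide traps topoisomerase II on cut DNA and so leaves double-strand breaks, most readily in cells that are copying or segregating their chromosomes. The breaks activate the kinases ATM and ATR, which stabilise p53, and p53 turns on genes for cell cycle arrest, DNA repair and apoptosis. One of these genes encodes the CDK inhibitor p21, through which RB family proteins and the DREAM complex come to repress the genes of S phase and mitosis. TFEB and TFE3 are transcription factors that reach the nucleus under lysosomal, nutrient and genotoxic stress and bind the CLEAR motif of lysosomal and autophagy genes.

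Levels are given as CPM, read counts relative to the size of the library, scaled by the trimmed mean of M values (TMM), and fold changes as log2 values from limma-trend with a prior count of 3, with the standard error (SE). A gene is said to have risen or fallen at a Benjamini-Hochberg adjusted p below 0.05 over the 18066 genes tested. The 6 DKO libraries held 34918422 to 61809316 counts, of which mitochondrial transcripts took 16.6% to 18.1%. The first principal component (71.2% of the variance) separated the 3 treated libraries from the 3 controls. DKO control replicate 1 stood apart from the other two controls on the second component (15.7%), and the median squared difference of its counts from theirs was 45.8 and 53.6 times that of counting error, against 6.402 times between the other two. The treated libraries differed among themselves by 8.12 to 23.5 times. The counts over all genes and those of 7 lists (mitosis, DNA replication, histones, p53 targets, ATF4 targets, NF-kB and CLEAR genes) are therefore also given without it. P-values measure only the spread between these samples, which the study calls independent and the labels do not describe further.

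The knockout was checked on the RNA of the targeted genes. Tfeb was at 3.14, 4.83 and 5.25 CPM in the DKO controls and at 4.27, 4.30 and 4.44 CPM after etoposide, against 16.8 ± 0.286 CPM (SD, n = 3) in Null control cells. Tfe3 was at 31.5, 39.4 and 42.5 CPM and then at 38.6, 34.2 and 40.4 CPM, against 104 ± 14.8 CPM in Null control cells. In treated Null cells Tfeb was at 7.56 ± 0.427 CPM, a fall by 1.15 on the log2 scale. Tfe3 was at 101 ± 2.02 CPM there and was not called. Both transcripts were thus lower in every DKO library than in the control or treated Null libraries, but RNA of both remained. Neither was called under etoposide in DKO cells, with log2 fold changes of 0.01 for Tfeb and 0.00 for Tfe3. The macrophage markers summed to 4675 to 4986 CPM in the DKO controls and to 5948 to 6575 CPM in the treated DKO libraries. The 10 fibroblast markers summed to 0.152 to 0.269 CPM and to 1.36 to 1.46 CPM, and in Null libraries to 0.646 to 0.928 CPM in controls and 2.24 to 2.31 CPM after etoposide. Of the fibroblast markers Pdgfra, Pdgfrb and Fbn1 passed the filter on low counts and all 3 rose in DKO cells. Pdgfrb, the highest of them, reached only 0.963 CPM in DKO and 1.38 CPM in Null libraries. Both values are far below the sum of the macrophage markers. The part of the fibroblast markers in the results was not tested.

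Etoposide changed 7108 genes in DKO cells. Of the genes tested 20.2% rose (3650 genes) and 19.1% fell (3458 genes), and 4189 rose and 3706 fell without DKO control replicate 1. At least a doubling was fitted for 1160 of the genes that rose and at least a halving for 1210 of those that fell. In Null cells 20.9% of the genes rose and 18.7% fell. The DKO response was lower than the Null response, by a test of the difference itself, for 6.39% of the genes tested (1154 genes) and higher for 3.07% (554 genes), and without DKO control replicate 1 for 1229 and 809 genes. The number with a higher response moved most, to 368 and 350 when replicate 2 of the Null controls or replicate 3 of the treated Null libraries was left out and to 876 with the DESeq2 Wald test. The median log2 fold change over all genes tested was 0.03 in both cell types. Genes described below come from lists by role, of which a few members did not pass the filter on low counts, such as Il6, Csf2, Cxcl1 and Cxcl3 of the inflammatory list (49 of 55 tested), and are left out of the counts.

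**Figure D1:**
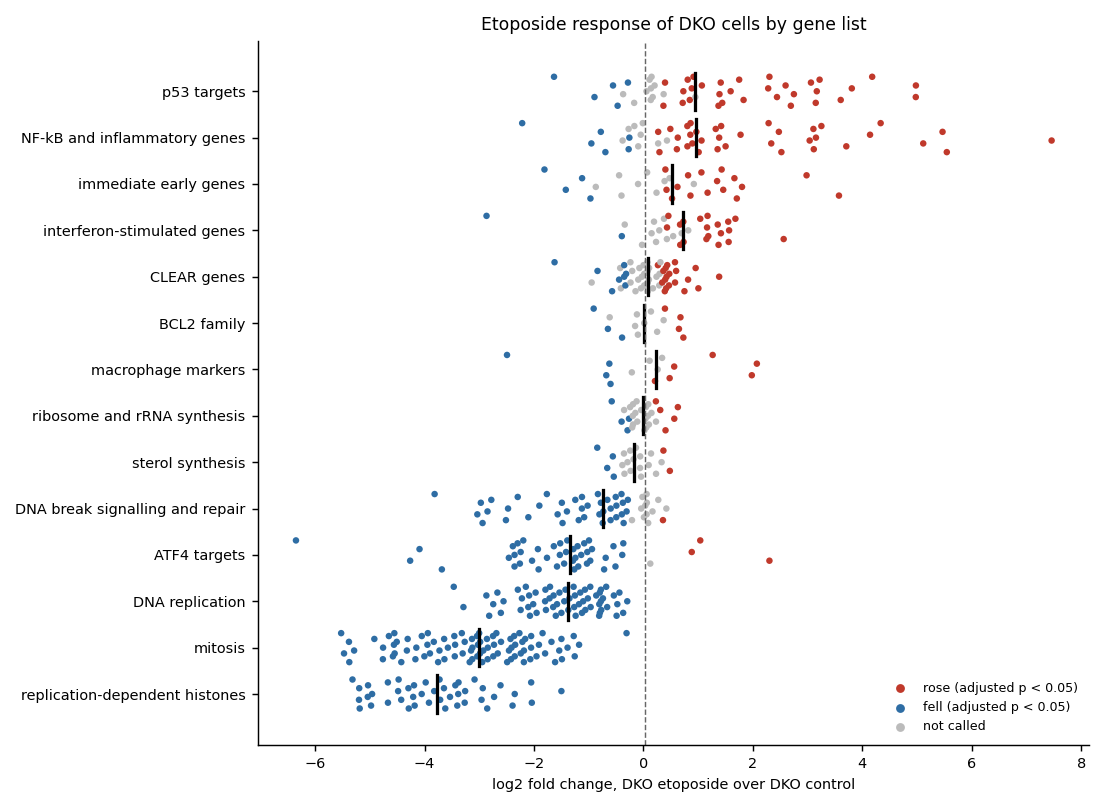
Log2 fold change of each tested member of 14 gene lists in DKO cells (horizontal axis), with 1 point a gene, red where it rose, blue where it fell and grey where it was not called. The black bar is the median of the list and the dashed line the median over all genes tested. The points of the mitosis, DNA replication and histone lists all lie to the left of 0, while p53 targets and inflammatory genes lie mostly to the right.

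Mitotic genes fell deeply. All 89 genes of a list of mitotic regulators fell, with a median log2 fold change of -3.00, beside 19.1% of all genes tested, and all 89 also fell without DKO control replicate 1. Summed over the list, their level went from 10958, 11473 and 11805 CPM in the controls to 1623, 1595 and 1682 CPM after etoposide, which is 6.99-fold lower. Fewer cells in mitosis and less of each transcript in a cell cannot be told apart in bulk RNA.

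Cenpf, a kinetochore protein of late cell cycle, was at 132, 148 and 170 CPM in the controls and at 3.29, 2.83 and 3.47 CPM after etoposide (46.9-fold lower, log2 fold change -5.52, SE 0.11, adjusted p = 4.22e-12). Ccnb2, a cyclin that drives entry into mitosis, went from 135, 158 and 186 CPM to 4.09, 2.90 and 3.63 CPM (45.0-fold lower). Plk1, a kinase of centrosome maturation and mitotic exit, went from 73.4, 131 and 141 CPM to 2.73, 2.61 and 3.01 CPM (41.4-fold lower). In each of these the control and treated libraries lay far apart, also where DKO control replicate 1 was the lowest of the controls. The spindle protein Aspm (42.3-fold lower) and Pimreg, a regulator of the metaphase to anaphase transition (43.7-fold lower), belonged to the same range. So did Depdc1a, a mitotic protein outside the list, which went from 24.7, 27.1 and 26.4 CPM to 0.7997, 0.6997 and 0.7070 CPM (35.4-fold lower).

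The fall was graded among the members. The 29 genes of spindle, motors and cytokinesis had a median of -3.44, the 16 cyclins and mitotic kinases -3.25, the 22 genes of chromosome structure and mitotic exit -2.63 and the 22 kinetochore and centromere genes -2.39. Mki67, which encodes the proliferation marker Ki-67, was 17.8-fold lower at 1308, 1389 and 1491 CPM against 76.5, 76.7 and 82.2 CPM. Aurka, a kinase of spindle poles, fell the second least, from 121, 114 and 105 CPM to 53.1, 50.7 and 46.4 CPM (2.26-fold lower). Bub3, a checkpoint protein that also works outside mitosis and that is named here after its value was seen, fell least (log2 fold change -0.31).

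In Null cells 72 of the 89 genes also fell and 3 rose, with a median log2 fold change of -0.63. The DKO response was lower for 87 of the 89 by the interaction test, beside 6.39% of all genes tested. Cenpf, for example, was at 152 ± 8.94 CPM in Null controls and 76.1 ± 5.39 CPM in treated Null cells, so that the DKO response was 4.53 lower on the log2 scale (SE 0.15, adjusted p = 2.81e-09). Kif18b, a kinesin that shortens astral microtubules, fell from 69.7, 77.3 and 69.1 CPM to 15.9, 13.8 and 12.7 CPM in DKO cells, whereas it rose in Null cells from 85.4 ± 5.08 to 121 ± 0.871 CPM. The kinetochore gene Ska3 fell by 2.41 on the log2 scale in DKO cells and was at 0.03 in Null cells, where it was not called.

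Top2a encodes the form of topoisomerase II that dividing cells use. It went from 694, 661 and 693 CPM to 79.4, 85.2 and 87.1 CPM in DKO cells (8.13-fold lower), and from 759 ± 66.7 to 457 ± 15.5 CPM in Null cells (difference of the responses -2.30, adjusted p = 3.17e-08). Top2b, the form present also in resting cells, was at 241, 287 and 320 CPM and then at 216, 225 and 251 CPM, with a log2 fold change of -0.29. Its groups overlapped and its call was lost in 12 of 21 alternative analyses.

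Promoters of mitotic genes are known to carry a CHR element, which the DREAM complex binds, close to the transcription start and a CCAAT box upstream of it. RefSeq promoters (GRCm38.p6, 250 bases before to 50 after the start) were at hand for 76 of the 89 mitotic genes and for 10808 of the genes tested. The CHR letters TTTGAA occurred on either strand in 52 of the 76 promoters (68.4%), against 14.8% of all 10808, and CCAAT in 53 of the 76 (69.7%), against 42.6%. A match is only a run of letters. The stretches below are the 150 bases just before the start of 4 mitotic genes, chosen to show how the motifs lie in promoters that hold both. Ccnb2 has 3 CCAAT boxes in the stretch shown, and its CHR letters lie in the rest of the searched window. They run 5′ to 3′ on the strand of the gene, with the motif letters in capitals, read on either strand.
Cdc20 (chr4:118437344-118437493, minus strand): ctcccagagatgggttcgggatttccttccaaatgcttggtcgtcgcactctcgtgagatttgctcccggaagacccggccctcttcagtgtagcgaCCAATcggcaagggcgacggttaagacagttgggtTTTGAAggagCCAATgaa
Kif11 (chr19:37376232-37376381, plus strand): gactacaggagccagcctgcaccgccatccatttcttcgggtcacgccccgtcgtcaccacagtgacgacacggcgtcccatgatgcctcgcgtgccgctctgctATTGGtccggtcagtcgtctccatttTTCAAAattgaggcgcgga
Depdc1a (chr3:159495283-159495432, plus strand): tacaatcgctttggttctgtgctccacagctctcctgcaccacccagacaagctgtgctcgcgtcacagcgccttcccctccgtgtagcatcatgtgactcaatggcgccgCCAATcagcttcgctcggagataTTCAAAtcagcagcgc
Ccnb2 (chr9:70421555-70421704, minus strand): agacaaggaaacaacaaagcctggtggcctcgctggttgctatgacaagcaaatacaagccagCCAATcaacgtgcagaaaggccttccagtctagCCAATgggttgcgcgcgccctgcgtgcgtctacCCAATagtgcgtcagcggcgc

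These promoters belong to genes with deep falls of unequal size. Cdc20, the activator of the anaphase-promoting complex, went from 128, 101 and 88.0 CPM to 12.98, 12.31 and 10.44 CPM (8.88-fold lower). Kif11, the motor that separates the spindle poles, went from 180, 119 and 117 CPM to 5.20, 5.86 and 3.98 CPM (27.6-fold lower). Within the mitotic list the letters did not sort the genes by their fall. The median log2 fold change was -3.04 over the 41 promoters with both motifs, -3.64 over the 11 with CHR letters alone, -2.80 over the 12 with CCAAT alone and -3.28 over the 12 with neither. Outside the list 28.0% of the 735 genes with both motifs fell, against 18.7% of the 5368 genes with neither.

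**Figure D2:**
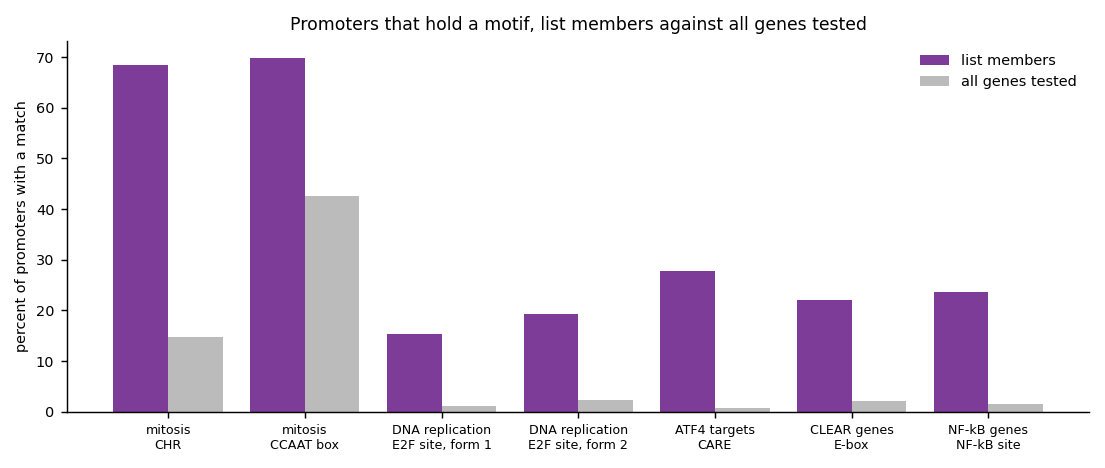
Percent of promoters that hold a motif among members of a list (purple) and among all genes tested that have a promoter sequence (grey). The share in list members was the higher of the pair in all 7 comparisons. Examples are 68.4% against 14.8% for the CHR letters in mitotic genes and 22.0% against 2.03% for the CLEAR E-box in CLEAR genes. Each motif was paired with a list already known for it, so the comparisons are a description and not a test. Among lists not paired with it, CCAAT stood in 61.5% (DNA replication), 58.3% (ATF4 targets), 29.3% (CLEAR genes) and 26.5% (NF-kB genes), against 42.6% of all promoters.

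Genes of DNA replication fell with the mitotic genes but less deeply. All 63 tested members fell (62 without DKO control replicate 1), beside 19.1% of all genes tested, with a median log2 fold change of -1.37. The 8 genes of nucleotide synthesis had the lowest median of their subgroups (-1.88), followed by polymerases and fork proteins (25 genes, -1.35), origin licensing and firing (20 genes, -1.21) and cyclin E and E2F factors (10 genes, -1.17). Rrm2, the S phase subunit of ribonucleotide reductase, went from 90.9, 104 and 92.0 CPM to 13.4, 13.5 and 13.6 CPM (7.10-fold lower). In Null cells Rrm2 went from 99.7 ± 7.80 to 78.9 ± 3.997 CPM, and the DKO response was 2.48 lower. Tk1, the thymidine kinase of S phase, was 9.88-fold lower in DKO cells and the atypical repressor E2f8 11.3-fold lower. Cdc6 and Clspn, which act at origins and at stalled forks, were 4.67-fold and 7.38-fold lower. Pcna, the sliding clamp of the replication fork, fell less, from 215, 182 and 184 CPM to 78.8, 89.6 and 73.7 CPM (2.40-fold lower), and so did the activator E2f1 (1.68-fold lower). The DKO response was lower than that of Null cells for 44 of the 63 genes and higher for none, beside 6.39% and 3.07% of all genes tested.

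Mcm6, a subunit of the replicative helicase, shows an E2F motif upstream of its start. It was at 256, 263 and 262 CPM in the controls and at 75.6, 73.4 and 76.4 CPM after etoposide (3.46-fold lower). The E2F letters TTTGGCGC and TTTCCCGC were searched on both strands, and they occurred in 15.4% and 19.2% of the 52 replication promoters with a sequence, against 1.09% and 2.29% of all promoters. The 150 bases before the start of Mcm6 hold the first form 2 times, shown in capitals.
Mcm6 (chr1:128359706-128359855, minus strand): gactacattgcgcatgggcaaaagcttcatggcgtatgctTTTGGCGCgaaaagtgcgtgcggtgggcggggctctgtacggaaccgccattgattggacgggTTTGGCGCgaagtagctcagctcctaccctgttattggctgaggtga

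Replication-dependent histone genes, which are transcribed in S phase, had the lowest median of all lists. All 44 tested members fell (all 44 also without DKO control replicate 1), beside 19.1% of all genes tested, with a median log2 fold change of -3.78. The response was lower in DKO than in Null cells for 40 of them, beside 6.39% of all genes. Their summed level went from 3646, 3483 and 3356 CPM to 288, 289 and 271 CPM (12.4-fold lower). Hist1h2bn, a gene for histone H2B, went from 99.4, 122 and 124 CPM to 3.02, 3.17 and 3.11 CPM (37.2-fold lower), against 109 ± 14.5 and 23.7 ± 1.75 CPM in Null cells. The linker histone genes Hist1h1a and Hist1h1b were 37.6-fold and 42.8-fold lower, and the H2B genes Hist1h2bl and Hist1h2bb 38.8-fold and 33.6-fold lower. Single histone genes are uncertain, because they share sequence with their copies and only uniquely mapped pairs were counted. Most histone transcripts lack a poly(A) tail, and these libraries were made from total RNA depleted of ribosomal RNA.

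Genes of DNA break signalling and repair also fell rather than rose. Of 52 tested, 39 fell and 1 rose, beside 19.1% and 20.2% of all genes tested, with a median of -0.74. The genes of homologous recombination and the Fanconi pathway fell most (18 of 19, median -1.77), the sensors and kinases less (14 of 19, median -0.51) and those of end joining and of topoisomerase adducts least (7 of 14, median -0.25). Fancd2, the protein that is ubiquitinated at stalled forks, went from 61.0, 97.0 and 122 CPM to 6.69, 4.76 and 7.88 CPM (14.5-fold lower). Brca1 was 4.32-fold lower and Chek1, the checkpoint kinase downstream of ATR, 4.96-fold lower. Atm, the kinase that senses double-strand breaks, fell from 149, 149 and 146 CPM to 83.2, 89.5 and 92.3 CPM, by 0.74 on the log2 scale, and by 0.64 in Null cells. Tdp2, which removes topoisomerase II from DNA ends, fell from 30.5, 22.9 and 23.9 CPM to 15.7, 17.5 and 17.4 CPM. The 1 member that rose was Lig4, the ligase of end joining, from 4.81 ± 0.316 to 6.18 ± 0.517 CPM. Chek2, the checkpoint kinase downstream of ATM, fell by 0.31, a call that was lost in 8 of the alternative analyses. In Null cells 31 of the 52 genes fell and 3 rose, with a median of -0.32. By the interaction test the DKO response was lower for 22 of the 52, among them Fancd2 (-2.99), Brca1 (-1.51) and Chek1 (-1.26). It was higher for none. Over all genes tested the shares were 6.39% lower and 3.07% higher.

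The p53 program was induced, but unevenly. Of 47 tested p53 targets 31 rose, 5 fell and 11 were not called, beside 20.2% and 19.1% of all genes tested that rose and fell, with a median log2 fold change of 0.95 and 33 risen members without DKO control replicate 1. In Null cells 36 rose, with a median of 1.94. The DKO response was lower for 21 of the 47 and higher for 1, beside 6.39% and 3.07% of all genes.

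Trp53inp1, a p53 cofactor with a role in cell death and autophagy, rose from 4.38, 3.68 and 4.21 CPM to 132, 133 and 126 CPM (31.9-fold, adjusted p = 3.71e-12), and to 342 ± 23.1 CPM in Null cells. Mdm2, the ubiquitin ligase that limits p53, rose from 71.5, 56.8 and 56.2 CPM to 329, 342 and 325 CPM (5.40-fold), against 48.9 ± 4.08 and 459 ± 18.2 CPM in Null cells. Cdkn1a, the gene of p21, rose from 90.1, 119 and 112 CPM to 339, 285 and 340 CPM (3.01-fold). In Null cells Cdkn1a went from 48.2 ± 6.10 to 392.1 ± 5.16 CPM, so the DKO controls lay above the Null controls and the treated DKO libraries below the treated Null libraries. The DKO response was 1.44 lower on the log2 scale (SE 0.17, adjusted p = 0.000118). Other genes of this kind were Ccng1, a cyclin that acts back on p53 (6.71-fold), and Phlda3, an inhibitor of AKT (18.2-fold). So were Plk2 (12.6-fold), Epha2 (6.44-fold) and Eda2r, a death receptor (9.47-fold). Each had a DKO response below that of Null cells. Treated DKO libraries still held more Plk2 (mean 19.99 against 10.73 CPM) and Eda2r (17.43 against 10.18 CPM) than treated Null libraries. Both genes were also higher in DKO than in Null controls (1.588 against 0.0216 CPM and 1.84 against 0.322 CPM). Epha2 started higher in DKO controls (19.16 against 3.458 CPM) but reached less (123.3 against 204.8 CPM). Ccng1 and Phlda3 were also lower in treated DKO than in treated Null libraries. Fas, a death receptor, rose from 1.52, 1.29 and 1.56 CPM to 7.18, 7.75 and 6.92 CPM. Ak1 (31.8-fold) and the epoxide hydrolase gene Ephx1 (14.1-fold) rose with no called difference between the cell types.

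The BH3-only genes that p53 uses to start apoptosis were not called in DKO cells. Pmaip1, the gene of NOXA, was at 21.8, 21.8 and 23.1 CPM in the controls and at 22.7, 26.4 and 24.3 CPM after etoposide, so the groups overlapped (log2 fold change 0.14, adjusted p = 0.199). In Null cells it rose from 17.4 ± 0.859 to 79.8 ± 4.39 CPM, and the responses differed by -2.05 (SE 0.11, adjusted p = 1.14e-07). Bbc3, the gene of PUMA, was at 22.1, 24.3 and 24.6 CPM and at 32.3, 28.0 and 31.6 CPM. These groups did not overlap, but the log2 fold change of 0.37 was not called (adjusted p = 0.0812, called in 3 of the 21 alternative analyses), while in Null cells Bbc3 rose from 19.3 ± 5.59 to 72.6 ± 5.92 CPM (difference -1.57, adjusted p = 0.000545). Ppm1d, a phosphatase that ends p53 signalling, had a log2 fold change of 0.17 and was not called either.

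The 5 p53 targets that fell were Trp53i11 (log2 fold change -1.63), the translesion polymerase gene Polh (-0.90), Ddb2 (-0.56), Dram1 (-0.47) and Cop1 (-0.28), of which those outside the naming rule are given because they are so few. Ddb2, a damage sensor of nucleotide excision repair, overlaps Acp2, whose reads, if spread evenly over its exons, would make up 19.9% of its counts.

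Among the BCL2 family, 4 of 15 members rose and 3 fell, with a median of 0.01. These shares are near the 20.2% and 19.1% of all genes tested, so the members are described one by one. The pro-apoptotic genes Bax, Bcl2l11 (the gene of BIM) and Bad rose, with log2 fold changes of 0.73, 0.68 and 0.39, and the anti-apoptotic Bcl2l1 rose by 0.65. Bax went from 86.8, 110 and 123 CPM to 171, 157 and 198 CPM. The anti-apoptotic genes Bcl2 (-0.91), Bcl2a1b (-0.65) and Bcl2a1d (-0.39) fell. The last 2 belong to a family of near-identical copies, and the counts of Bcl2a1b may include those of the overlapping Gm29094, up to 57.5% of them by an even spread. The calls of Bcl2l1 and Bad were lost in 4 alternative analyses each. Mcl1, another anti-apoptotic gene, was not called and its control libraries were far apart at 565, 914 and 1102 CPM.

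**Figure D3:**
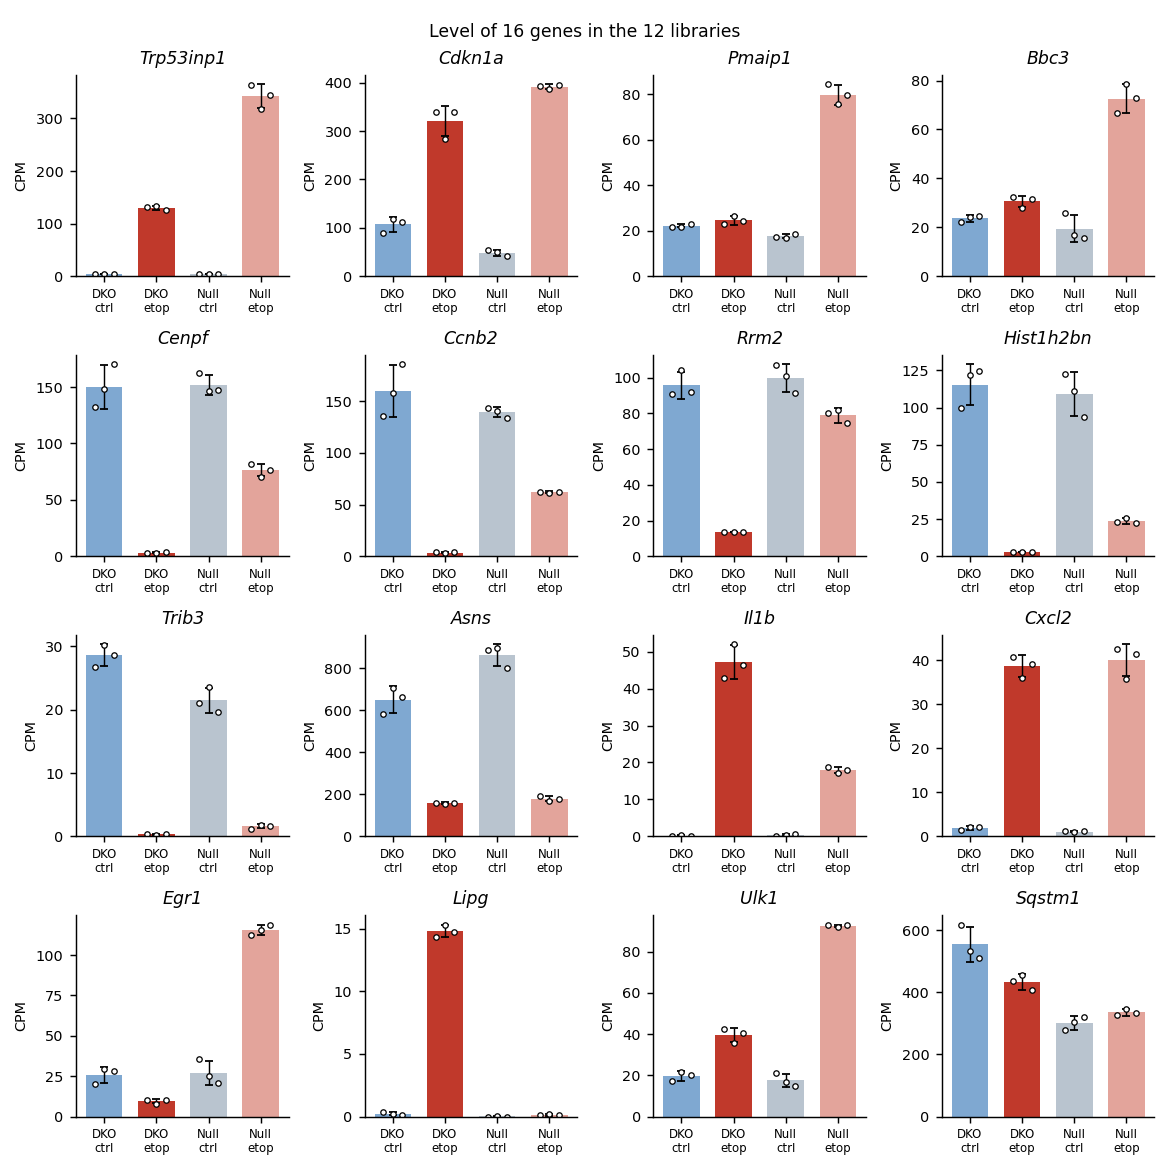
Level of 16 genes in CPM (vertical axes, from 0) in DKO control, DKO etoposide, Null control and Null etoposide libraries. Bars are means, whiskers the SD and circles the 3 libraries of a group. Trp53inp1 rises in both cell types, Pmaip1 and Bbc3 reach 79.8 and 72.6 CPM only in the treated Null libraries, and Cenpf, Ccnb2 and Hist1h2bn come close to 0 in the treated DKO libraries.

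Targets of ATF4, the factor of the integrated stress response that supplies amino acids under stress, fell. Of 46 tested, 42 fell and 3 rose, beside 19.1% and 20.2% of all genes tested, with a median log2 fold change of -1.34, and all 42 fell also without DKO control replicate 1. Every gene of amino acid synthesis (12), amino acid transport (8) and tRNA charging (13) fell. In Null cells 42 members fell, with a median of -1.40, and the DKO response was lower for 5 and higher for 2 of the 46, beside 6.39% and 3.07% of all genes.

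Trib3, a pseudokinase that ATF4 induces, had the lowest log2 fold change of all protein-coding genes named here. It went from 26.8, 30.2 and 28.7 CPM to 0.363, 0.192 and 0.345 CPM (95.1-fold lower, log2 fold change -6.35, SE 0.20). In Null cells it went from 21.5 ± 1.99 to 1.58 ± 0.322 CPM, a smaller fall by 2.62. Atf4 itself went from 541, 733 and 744 CPM to 173, 162 and 191 CPM (3.84-fold lower). Asns, the gene of asparagine synthetase, was 4.11-fold lower, at 583, 707 and 661 CPM and then 161, 153 and 161 CPM. The neutral amino acid carrier Slc1a4 was 19.4-fold lower, the glutathione-degrading enzyme Chac1 18.8-fold lower and the secreted glycoprotein Stc2 13.8-fold lower. Ddit3, the gene of CHOP, was 2.41-fold lower, and the overlapping Mars would make up 17.8% of its counts. The 3 members that rose were Ddit4 (log2 fold change 2.30), Sesn2 (0.88) and Cebpb (1.04), and the first 2 are also p53 targets.

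Slc7a11, the cystine carrier that feeds glutathione synthesis, kept most of its level in DKO cells. It was at 141, 146 and 152 CPM in the controls and at 102, 118 and 115 CPM after etoposide, a fall by 0.39 on the log2 scale. In Null cells it fell from 101 ± 6.77 to 30.1 ± 2.49 CPM, and the responses differed by 1.36 (SE 0.12, adjusted p = 9.56e-06). The C/EBP-ATF response element that ATF4 binds, searched as TGATGCAA on both strands, occurred in 27.8% of the 36 promoters of ATF4 targets with a sequence and in 0.824% of all promoters. Slc7a11 holds it 2 times within the 150 bases before its start and Nupr1, a stress-induced chromatin protein that was 5.26-fold lower, 1 time, so the same letters stand before a gene that fell little and a gene that fell far.
Slc7a11 (chr3:50443614-50443763, minus strand): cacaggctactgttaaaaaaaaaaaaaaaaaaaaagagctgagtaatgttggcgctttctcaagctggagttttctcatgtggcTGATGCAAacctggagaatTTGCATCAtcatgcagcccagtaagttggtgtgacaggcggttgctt
Nupr1 (chr7:126625471-126625620, minus strand): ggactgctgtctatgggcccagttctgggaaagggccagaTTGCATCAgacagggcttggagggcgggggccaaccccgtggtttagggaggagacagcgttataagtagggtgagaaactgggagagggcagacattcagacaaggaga

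Inflammatory genes rose in both cell types. Of 49 tested NF-kB and inflammatory genes 35 rose and 6 fell, beside 20.2% and 19.1% of all genes tested, with a median log2 fold change of 0.97 (35 rose also without DKO control replicate 1). Cytokines and enzymes rose most (13 of 15, median 2.52), together with chemokines (7 of 8, median 2.38), while subunits and feedback inhibitors of NF-kB rose less (9 of 17, median 0.29). Null cells had 35 members that rose, with a median of 0.72, and the DKO response was higher for 9 and lower for 12, beside 3.07% and 6.39% of all genes tested.

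Il1b, the gene of interleukin-1 beta, had the highest log2 fold change of the protein-coding genes named by the rule. It went from 0.169, 0.287 and 0.183 CPM to 43.0, 52.0 and 46.5 CPM (221-fold, log2 fold change 7.46, SE 0.39), and in Null cells from 0.405 ± 0.324 to 17.9 ± 0.780 CPM. The difference of the 2 responses, 1.93 on the log2 scale, passed the test narrowly (SE 0.55, adjusted p = 0.0451). Its relative Il1a was at 0.0939, 0.126 and 0 CPM and then at 4.83, 5.53 and 5.23 CPM. Lif, a cytokine of the interleukin-6 family, rose from 0.338, 0.162 and 0.518 CPM to 18.5, 15.1 and 18.2 CPM. Csf3, the gene of G-CSF, rested on 4 counts in all control libraries and reached 3.56, 2.82 and 2.68 CPM. The chemokine Ccl4 rose 8.62-fold to 50.9, 52.7 and 45.4 CPM and Tnf, already abundant, 1.79-fold to 503, 448 and 520 CPM.

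Cxcl2, a chemokine that draws neutrophils, rose from 1.39, 2.12 and 2.17 CPM to 40.8, 35.9 and 39.1 CPM (20.4-fold). Treated Null cells reached 40.0 CPM from a lower start of 1.10 CPM. Its promoter holds an NF-kB motif. The letters GGANTTTCC, searched on both strands, occurred in 23.5% of the 34 promoters of the list with a sequence and in 1.55% of all promoters, and the stretch before the start of Cxcl2 has 1 match, in capitals.
Cxcl2 (chr5:90903749-90903898, plus strand): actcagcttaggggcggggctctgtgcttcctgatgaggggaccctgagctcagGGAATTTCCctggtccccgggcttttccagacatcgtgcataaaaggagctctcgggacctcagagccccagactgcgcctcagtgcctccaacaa

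The feedback inhibitors did not move together. Nfkbiz, a nuclear IkB protein that is needed for a subset of inflammatory genes, rose from 15.70, 21.89 and 20.95 CPM to 168, 165 and 184 CPM (8.83-fold), more than in Null cells (difference 1.17, adjusted p = 0.000741). Nfkbia, the gene of the cytoplasmic inhibitor IkB alpha, rose 1.72-fold. Tnfaip3, the gene of the deubiquitinase A20 that shuts NF-kB signalling off, fell from 7.19, 5.73 and 6.59 CPM to 3.69, 4.09 and 3.49 CPM, whereas it rose in Null cells from 11.7 ± 0.255 to 15.8 ± 0.415 CPM (difference -1.21, adjusted p = 0.000159). Ccl5 rested on 3 counts in the DKO controls and was at 0.563, 0.490 and 0.773 CPM after etoposide. It was not called in Null cells, and the responses differed by 3.10.

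Immediate early genes, which cells switch on within minutes of a stimulus, rose in part. Of 29 tested, 16 rose and 4 fell, beside 20.2% and 19.1% of all genes tested, with a median of 0.52, while in Null cells 25 rose with a median of 1.57. The DKO response was lower for 10 members and higher for 2, beside 6.39% and 3.07% of all genes. Egr1, a zinc finger factor induced through MAP kinases, was one of the 4 that fell, from 20.04, 29.19 and 28.40 CPM to 10.5, 7.92 and 10.3 CPM (2.70-fold lower). In Null cells it rose from 27.0 ± 7.53 to 116 ± 3.15 CPM, and the responses differed by -3.55 (SE 0.27, adjusted p = 2.42e-06). The others that fell were Atf3 (-1.81), Klf6 (-1.12) and Klf4 (-0.97). Fos rose by 0.86 in DKO cells and by 1.72 in Null cells. The MAP kinase phosphatase gene Dusp5 rose from 7.81, 8.42 and 9.27 CPM to 103, 99.7 and 101 CPM (11.9-fold), with no called difference from Null cells. Myc was at 7.48, 11.4 and 10.5 CPM and then at 7.34, 6.38 and 7.46 CPM in DKO cells and was not called, while in Null cells, where it was low, it rose by 1.87.

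Interferon-stimulated genes were mostly low. Of 32 tested, 19 rose and 2 fell, with a median of 0.71, beside 20.2% and 19.1% of all genes tested. By the interaction test the response was higher in DKO cells for 2 and lower for 2, beside 3.07% and 6.39% of all genes. Oasl1, a relative of the oligoadenylate synthetases, rose from 19.2, 19.6 and 17.2 CPM to 61.1, 60.6 and 58.0 CPM (3.21-fold), more than in Null cells (difference 1.15, adjusted p = 3.23e-05). Irf7, a transcription factor of the interferon response, rose from 6.18, 8.11 and 7.44 CPM to 16.4, 14.9 and 17.0 CPM (2.22-fold). Zbp1, a sensor of Z-form nucleic acids, rested on 4 counts in the controls and reached 0.636, 0.420 and 0.312 CPM. Isg15 rose by 1.36 on the log2 scale but stayed at or below 0.350 CPM. One of the genes that fell was Ifit2, from 6.12, 5.39 and 4.97 CPM to 0.691, 0.770 and 0.641 CPM (7.84-fold lower).

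**Figure D4:**
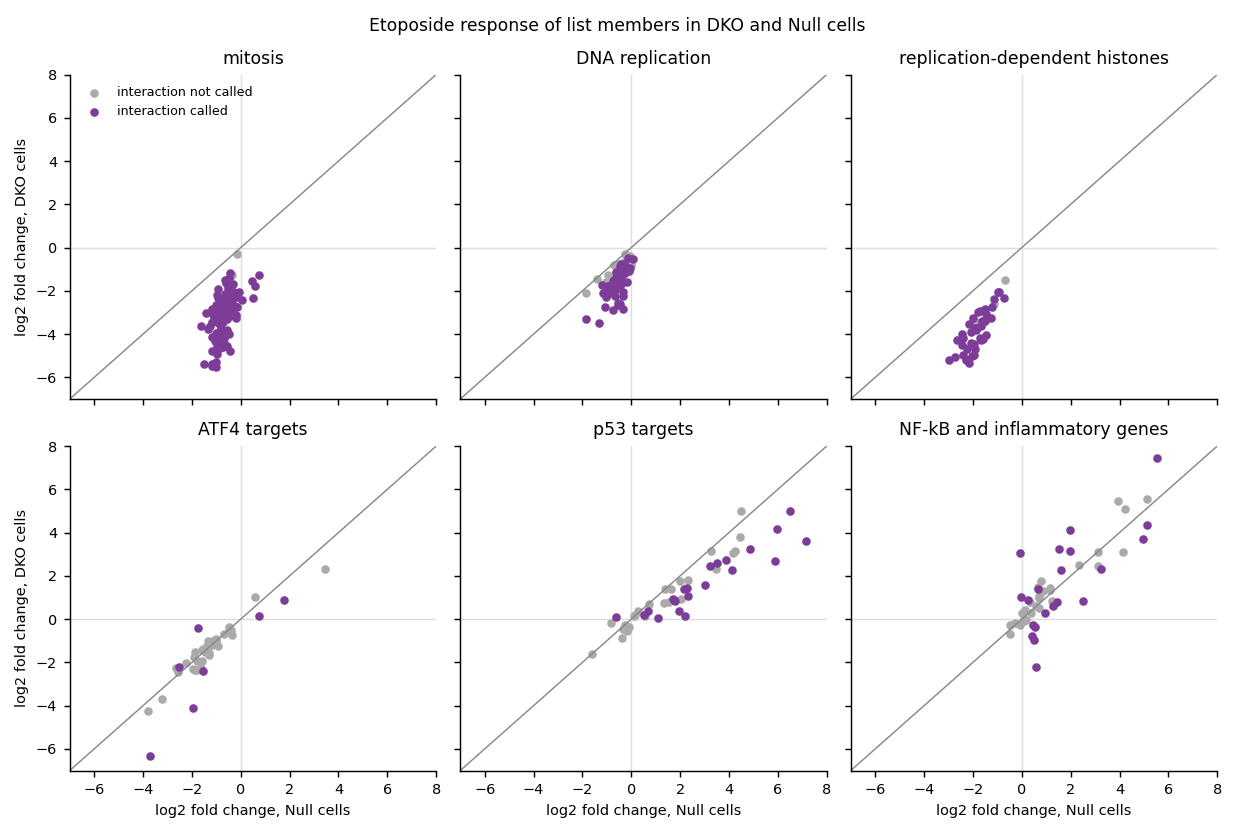
Log2 fold change under etoposide in DKO cells (vertical axis) against Null cells (horizontal axis) for the members of 6 gene lists, purple where the 2 responses differed by the interaction test. The grey diagonal marks equal responses. Mitotic genes lie below it (87 of 89 purple), ATF4 targets lie along it (7 of 46 purple) and p53 targets lie mostly below it (22 of 47 purple).

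CLEAR genes, the lysosomal and autophagy genes whose promoters TFEB and TFE3 bind, did not move one way in cells without both factors. Of 52 tested, 19 rose and 8 fell, with a median of 0.09, beside 20.2% and 19.1% over all genes tested, and 20 rose without DKO control replicate 1. Null cells had 14 that rose and 8 that fell, with the same median of 0.09, and the DKO response was higher for 2 and lower for 4, beside 3.07% and 6.39% of all genes tested. The V-ATPase subunits had the highest subgroup median (3 of 8 rose, 0.28), followed by autophagy and mTORC1 control (7 of 16 rose, 0.24).

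Ulk1, the kinase that starts autophagy, rose from 17.2, 21.7 and 20.3 CPM to 42.6, 35.6 and 40.5 CPM (2.00-fold). In Null cells it went from 17.6 ± 3.30 to 92.7 ± 0.536 CPM, and the DKO response was 1.41 lower (SE 0.18, adjusted p = 0.000264). Uvrag, a regulator of autophagosome maturation, fell in both cell types and less in DKO cells (-0.84 against -1.70). Sqstm1, the gene of the autophagy receptor p62, fell from 618, 534 and 510 CPM to 436, 457 and 406 CPM in DKO cells and was not called in Null cells (0.16). The responses differed by -0.51.

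The lysosomal membrane protein gene Lamp1 and the autophagosome gene Map1lc3b were not called, with log2 fold changes of 0.00 and 0.01. Ctsd, the gene of cathepsin D, rose 1.91-fold, but an even spread of reads over the overlapping Gm49369 would make up 46.7% of its counts. The calcium channel gene Mcoln1 rose from 28.0, 23.2 and 25.5 CPM to 32.3, 33.2 and 31.5 CPM, and Flcn, a regulator of the Rag GTPases, by 0.58. Gpnmb rested on 13 counts in the controls, and its call was lost in 11 of the alternative analyses. The CLEAR letters TCACGTGA stood in 22.0% of the 41 promoters with a sequence, against 2.03% of all promoters, and Mcoln1 has 1 match before its start.
Mcoln1 (chr8:3500369-3500518, plus strand): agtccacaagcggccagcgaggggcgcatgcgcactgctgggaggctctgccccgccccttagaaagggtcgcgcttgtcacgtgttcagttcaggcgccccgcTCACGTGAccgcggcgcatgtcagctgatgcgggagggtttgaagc

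Of 21 genes of sterol synthesis and uptake 15 fell in Null cells and 1 rose, beside 18.7% and 20.9% of all genes tested. In DKO cells 4 fell, Dhcr7 (-0.84), Sc5d (-0.66), Fdps (-0.56) and Sqle (-0.54), and 2 rose, among them Hsd17b7 (0.36), beside 19.1% and 20.2% of all genes tested. The DKO shares do not exceed those of all genes tested, so the members are only named one by one. The interaction test called 1 of the 21. The counts of Fdps may hold those of the overlapping Gm43738, up to 50.7% of them by an even spread. The call of Sqle was lost in 1 alternative analysis.

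Of 28 genes for ribosomal RNA synthesis and processing 5 rose and 4 fell, with a median of -0.01, shares below the 20.2% and 19.1% of all genes tested. Those that rose were Polr1e (0.63), Rrn3 (0.56), Nop2 (0.40), Bop1 (0.31) and Rrp9 (0.23), and those that fell were Ncl (-0.58), Nop58 (-0.40), Dkc1 (-0.29) and Ddx10 (-0.26). The call of Ncl was lost in 5 alternative analyses.

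Of 14 macrophage markers tested 6 rose and 4 fell, beside 20.2% and 19.1% of all genes tested, and Mertk and Mrc1 did not pass the filter on low counts. Cd14, the co-receptor for lipopolysaccharide, rose from 207, 360 and 374 CPM to 1279, 1084 and 1494 CPM (4.10-fold), more than in Null cells (difference 1.29, adjusted p = 0.0253). Fcgr1, the high-affinity receptor for IgG, fell from 28.5, 30.4 and 28.4 CPM to 5.23, 5.42 and 4.72 CPM (5.68-fold lower), also more than in Null cells (difference -1.59). Csf1r, the receptor for M-CSF, fell from 1432, 1264 and 1183 CPM to 865, 871 and 813 CPM. The lysozyme gene Lyz2 rose 1.47-fold. Fcgr4 (1.98) and Itgam (1.26) also rose, as did Adgre1 (0.48) and Spi1 (0.21), whose calls were lost in 7 and 14 alternative analyses. Ptprc (-0.68) and Fcgr2b (-0.62) also fell. Itgam overlaps Gm49368 on the same strand, which may hold up to 63.0% of its counts by an even spread.

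Among the 12 protein-coding genes with the highest log2 fold change at a level of at least 5 CPM, several belong to none of these lists. Robo3, an axon guidance receptor, went from 0.150, 0.305 and 0.213 CPM to 35.2, 32.5 and 46.2 CPM (170-fold), and further in Null cells, to 53.7 ± 5.57 CPM. The transmembrane protein gene Cdcp1 went from 0.150, 0.144 and 0.152 CPM to 15.5, 14.1 and 15.5 CPM. Ces2g, a carboxylesterase gene, rested on 3 counts in the controls and was at 4.69, 4.69 and 6.07 CPM after etoposide. Aldh1l1, an enzyme of folate metabolism, rested on 4 counts and reached 5.14, 5.96 and 4.78 CPM, of which the overlapping Gm15756 would make up 20.8%. The chemokine receptor gene Ccr1 rose to 9.01, 10.1 and 10.4 CPM, and 9530053A07Rik to 7.16, 7.70 and 6.92 CPM.

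Lipg, the gene of endothelial lipase, reached a level after etoposide in DKO cells that it did not reach in Null cells. It was at 0.338, 0.215 and 0.122 CPM in the DKO controls and at 14.4, 15.3 and 14.7 CPM after etoposide (65.7-fold). Treated Null cells were at 0.141 ± 0.0594 CPM, with 0.00673 ± 0.0117 CPM in their controls, and the responses differed by 4.20 on the log2 scale (SE 0.43, adjusted p = 3.97e-05). The Null controls were at 0, 0.0202 and 0 CPM, so the size of this difference depends on the prior count.

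By the naming rule, the genes with the largest differences among those of opposite sign in the 2 cell types were Kctd12, Arhgap24, Bhlhe41, Crybg2 and Tmem86a on the side of a higher DKO response, and Arhgap32, Egr1, Kif18b, Ska3 and Kifc5b on the lower side. Arhgap32 fell from 4.08, 5.66 and 7.66 CPM to 1.33, 1.03 and 1.91 CPM in DKO cells and rose in Null cells to 0.218 CPM. Tmem86a rose from 0.939, 1.42 and 2.62 CPM to 4.82, 3.87 and 7.10 CPM in DKO cells. Opposite sign refers to the fitted values, called or not. In Null cells Kctd12 (-0.11), Tmem86a (-0.61) and Ska3 (0.03) were not called. Arhgap24 was low in DKO cells, at 0.682 CPM or less, and Bhlhe41 was not called there, while both fell in Null cells. Kctd12 and Crybg2 overlap Gm26778 and Cd52, whose reads, spread evenly, would come to 83.1% and 122% of their counts.

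Of 15 listed noncoding transcripts 5 rose and 4 fell, beside 20.2% and 19.1% of all genes tested and 13.7% and 15.7% of the 604 lincRNAs tested. Malat1, an abundant nuclear RNA, rose from 2904, 2429 and 2241 CPM to 4516, 4786 and 4176 CPM (1.78-fold) and by 0.80 on the log2 scale in Null cells. Neat1, the scaffold RNA of paraspeckles and a p53 target, rose from 173, 167 and 167 CPM to 255, 254 and 235 CPM, while it was not called in Null cells (difference 0.57, adjusted p = 0.0035). Mir22hg rose 3.85-fold, and Mirt1 (2.27) and Gas5 (0.23) were the remaining rises, the latter lost in 11 alternative analyses. Dleu2 (-1.32), Kcnq1ot1 (-0.95), Mir17hg (-0.66) and Snhg5 (-0.55) fell.

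The response also varied with the genomic span of a gene. Among 12752 protein-coding genes 24.8% rose and 21.4% fell. The 414 genes of up to 2 kb had a median log2 fold change of 0.07, with 19.8% risen and 18.6% fallen. The median log2 fold change was 0.15 for the 1115 genes of 2 to 5 kb and 0.16 for the 1732 genes of 5 to 10 kb, then declined to -0.07 at 50 to 100 kb, -0.16 at 100 to 200 kb and -0.27 for the 506 genes over 200 kb. Of those longest genes 43.7% fell and 18.4% rose, against 11.5% and 28.7% at 2 to 5 kb. In Null cells the medians also declined beyond 10 kb, with a median of -0.39 and 50.8% fallen over 200 kb.

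**Figure D5:**
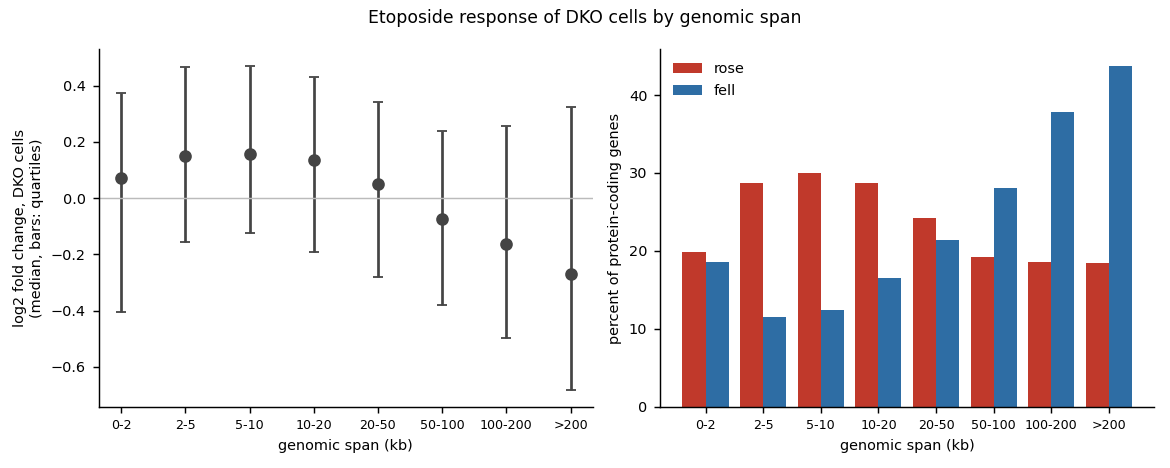
Left, median log2 fold change of protein-coding genes in DKO cells by genomic span, with bars from the lower to the upper quartile. Right, percent of the genes of each bin that rose (red) or fell (blue). The share that fell is 18.6% up to 2 kb and goes from 11.5% at 2 to 5 kb to 43.7% over 200 kb.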

How the data were processed

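RNA of RAW264.7 cells was sequenced in 12 libraries after depletion of ribosomal RNA with a stranded total RNA kit. The deposited values are counts of read pairs per gene, without normalization. According to the methods of the study, reads were aligned with HISAT2 and only uniquely mapped pairs were counted, with HTSeq on GENCODE genes, whereas the submitters' processing notes name featureCounts and mm10. Gene names and spans came from GENCODE M21, which matched 32501 of the 32688 identifiers (99.4%). Neighbouring genes on the opposite strand of abundant genes had a median density ratio of 0.981 over 106 genes, so reads of overlapping genes may not be told apart.

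The 18066 genes that passed filterByExpr were normalized by TMM and fitted with limma-trend (limma 3.58.1, edgeR 4.0.16, R 4.3.3) on log2 CPM with a prior count of 3, over all 12 libraries with 1 mean a group. Contrasts were the response of DKO cells, that of Null cells and their difference, with Benjamini-Hochberg adjustment over all genes tested at 0.05. The fit was tested on simulated data. Alternatives were other scalings, no filter, a prior count of 0.5, edgeR's quasi-likelihood test, DESeq2 1.42.0, the 6 DKO libraries alone, a replicate block and leaving out each library.

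Members and lists were chosen with earlier results of these data known. Named genes were Tfeb and Tfe3, and the 12 highest and 12 lowest called protein-coding genes. Both sets of 12 had groups that do not overlap and at least 5 CPM in the higher group. Preset key genes and up to 3 further called members of each list were added. So were 5 protein-coding genes a side with a called difference and fold changes of opposite sign, whether or not each response was called. Others, named where a count was 5 or fewer or where a text singles one out, were chosen after their values were seen, among them Trp53i11, Polh, Dram1, Cop1, Lig4, Bub3, Ddit4 and Cebpb. Promoters came from RefSeq (GRCm38.p6). Not every gene that this rule takes is described, and results for some are not reported here.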

Additional observations from a re-analysis of the deposited data

Results flagged for a closer look

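Of 166 genes described in the text, 85 had an etoposide response that differed between DKO and Null cells by the interaction term of limma-trend. The DKO response was lower for 67 and higher for 18, beside 6.39% and 3.07% of all genes tested. The largest adjusted p among the 85 was 0.0451. The differences are given as DKO minus Null on the log2 scale. The genes were chosen by the naming rule or after their values were seen, so the count of 85 is a description.

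Among these genes the lowest differences, many of them in mitotic, histone and S phase genes, were those of Cenpf (-4.53), Depdc1a (-4.31), Ccnb2 (-4.30), Plk1 (-4.26), Aspm (-4.22), Nuf2 (-3.95), Pimreg (-3.87), Arhgap32 (-3.83), Kif11 (-3.57), Egr1 (-3.55), Plk2 (-3.55), Ccnb1 (-3.28), Epha2 (-3.18), Hist1h1b (-3.15), Fancd2 (-2.99), Mki67 (-2.99), Hist1h2bn (-2.99), Cdc20 (-2.95), Hist1h2bl (-2.90), Kif18b (-2.85), Trib3 (-2.62), Rrm2 (-2.48), Ska3 (-2.44), Kifc5b (-2.44), Myc (-2.31), Hist1h2bb (-2.30), Top2a (-2.30), Hist1h1a (-2.23), E2f8 (-2.16), Chac1 (-2.15), Clspn (-2.13) and Pmaip1 (-2.05). Then came Fas (-1.86), Phlda3 (-1.80), Robo3 (-1.77), Eda2r (-1.65), Ifit2 (-1.61), Fcgr1 (-1.59), Bbc3 (-1.57), Cdc6 (-1.56), Trp53inp1 (-1.53), Pdgfra (-1.52), Brca1 (-1.51), Tk1 (-1.45), Cdkn1a (-1.44), Ulk1 (-1.41), Chek1 (-1.26), Tnfaip3 (-1.21), Fcgr2b (-1.14), Ccng1 (-1.13) and Dleu2 (-1.01). Smaller differences on the same side were those of Relb (-0.92), Sesn2 (-0.89), Fos (-0.86), Nupr1 (-0.82), Mcm6 (-0.82), Klf6 (-0.80), Mdm2 (-0.79), Cxcl2 (-0.77), Aurka (-0.75), Pcna (-0.68), Mir22hg (-0.68), Bcl2l11 (-0.61), Chek2 (-0.57), Sqstm1 (-0.51), Ppm1d (-0.35) and Rrn3 (-0.32).

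The response was higher in DKO cells for Lipg (4.20), Arhgap24 (3.66), Ccl5 (3.10), Kctd12 (2.84), Bhlhe41 (2.68), Crybg2 (2.53), Tmem86a (2.31), Il1b (1.93), Slc7a11 (1.36), Cd14 (1.29), Nfkbiz (1.17), Tfeb (1.16), Oasl1 (1.15), Pdgfrb (1.09), Uvrag (0.86), Csf1r (0.59), Neat1 (0.57) and Spi1 (0.45). Tfeb was not called in DKO cells (0.01) but fell in Null cells (-1.15), which gave its difference. Pdgfra was at 0 CPM in all 3 DKO controls and Ccl5 rested on 3 counts there, so their fitted differences depend on the prior count. The same holds for Lipg, Plk2, Arhgap32 and Robo3, which were at 0.130 CPM or less in every Null control, and for Arhgap24 and Bhlhe41, which were at 0.0898 CPM or less in every DKO control.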

How the results depend on the processing

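The counts were recomputed under 21 alternatives, 12 of which left out 1 library each. The naming rule takes 232 genes, including ones that the text does not describe. None changed direction with its call, and 192 of the 202 called ones kept direction and call in every alternative. Spi1, Top2b, Gas5, Gpnmb, Chek2, Adgre1, Ncl, Bcl2l1, Bad and Sqle lost theirs in at least 1. Of those that were not called, 10 were called in at least 1 alternative (among them Bbc3, Ppm1d and Relb in 3 each, Xpc in 2, and Atp6v1h, Ctsb, Myc, Npm1 and Tigar in 1 each). The number of genes with a higher response in DKO than in Null cells, 554, became 876 with the DESeq2 Wald test, 368 when replicate 2 of the Null controls was left out and 350 when replicate 3 of the treated Null libraries was. The cause was not tested. A fit of the 6 DKO libraries alone gave 2838 genes that rose and 2957 that fell, so that more fell than rose. Scaling by library size alone gave 4196 that rose and 3067 that fell. Leaving out 1 library gave 350 to 809 genes with a higher and 849 to 1229 with a lower response, and 3048 to 4189 genes that rose and 2829 to 3706 that fell in DKO cells. The lists ranged over 30 to 33 for p53 targets, 88 to 89 for mitosis, 62 to 63 for DNA replication, 16 to 20 for CLEAR genes and 33 to 35 for NF-kB genes, and stood at 44 for histones and 42 for ATF4 targets.

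With the replicate number as a block, 3263 genes rose and 3157 fell, and 383 and 927 differed between the cell types. Same-numbered DKO libraries correlated in their deviations at 0.0158, -0.251 and 0.394, below the 0.512 of control 1 with etoposide 2, so the numbers were not taken as a pairing. With 3 libraries a group, changes can be missed.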
